A study of Mus musculus with 12 samples.

Results

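The colony-stimulating factors and their receptors were followed here as a group of 9 genes, taken as the rows of the count table whose symbol was Csf1, Il34, Csf2, Csf3, Csf1r, Csf2ra, Csf2rb, Csf2rb2 or Csf3r. All 9 symbols occurred once among the 55335 rows. The first 4 are ligands and the other 5 are receptor chains. The mice were male, and all of them carried the floxed Tshr allele. Tshr f/f mice had no Cre and served as controls, and TshrMKO mice also carried Lyz2-Cre, in which Lyz2 promoter elements drive the recombinase in myeloid cells, so that the receptor for thyroid-stimulating hormone (TSH) is deleted in macrophages and in other myeloid cells and not in hepatocytes. Bone-marrow-derived macrophages (BMDMs) came from mice aged 6 weeks, were differentiated in M-CSF at 10 ng/mL over 7 days, and TSH at 1 ng/mL was then given for 24 h in both genotypes. The livers came from mice that started a high-fat diet at that age, stayed on it for 9 weeks, fasted for 8 h and were killed 5 min after insulin at 1.5 U/kg. TshrMKO mice were compared with littermates. Each of the 4 groups had 3 libraries. No BMDM library without TSH and no liver library without the diet is analysed here.

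The family divides the making of myeloid cells among a few ligands. M-CSF, the product of Csf1, and IL-34 both bind the receptor tyrosine kinase encoded by Csf1r, on which the survival of macrophages, Kupffer cells included, depends. GM-CSF, encoded by Csf2, binds the alpha chain from Csf2ra and signals through the common beta chain from Csf2rb, which IL-3 and IL-5 also use, while Csf2rb2 encodes a mouse-specific beta chain for IL-3. G-CSF, encoded by Csf3, binds the receptor from Csf3r and drives the production of neutrophils. Quiescent macrophages are known to make little Csf2 and Csf3 and to induce both genes on inflammatory stimulation. The beta chain and the G-CSF receptor signal through JAK2 and STAT proteins, with SOCS proteins as feedback inhibitors.

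Sequences are shown first for the genes whose letters bear on how the counts can be read. Csf2rb (chr15:78325752-78353847, plus strand) and Csf2rb2 (chr15:78282507-78305721, minus strand) are neighbours in GRCm38 and near-identical copies. Their longest coding sequences in GENCODE M21 held 2688 and 2634 bases, and 95.2% of the 2628 bases that could be aligned without gaps were identical. The longest identical stretch had 242 bases, at positions 2083 to 2324 of each coding sequence. Over all annotated transcripts, 12.3% of the 50-base words of Csf2rb and 18.4% of those of Csf2rb2 occurred in the other gene, and 4.63% and 6.82% of their 100-base words did. The 90-base coding window in which they differed most, by 16 bases, is given below for both, with the differing bases in capitals.
Csf2rb, coding positions 308 to 397: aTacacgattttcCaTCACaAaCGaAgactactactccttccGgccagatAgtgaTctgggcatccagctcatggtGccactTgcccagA
Csf2rb2, coding positions 311 to 400: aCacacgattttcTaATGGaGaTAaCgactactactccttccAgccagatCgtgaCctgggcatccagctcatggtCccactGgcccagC
Reads from such windows can be told apart, and reads from identical stretches cannot, so the split between the pair is uncertain and depends on how the authors' counting treated shared reads.

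RefSeq windows of 250 bases before the start of transcription (GRCm38.p6) were matched for 5 of the 9 members by symbol, namely Csf1, Csf2, Csf2ra, Csf2rb2 and Csf3r. Those of Csf1, Csf2ra and Csf2rb2, which were higher in BMDMs than in livers, are printed. The window of Csf3r, which was also higher in BMDMs, is not printed. All 5 windows were searched on both strands for GAGGAA and for GGANTTTCC. GAGGAA is the core of the sites of PU.1 (a transcription factor of myeloid cells), and 23.3% of 32851 windows of that length held it. GGANTTTCC is a sequence like the sites of NF-κB, and 1.07% held it. Matches are in capitals.
Csf1, chr3:107760470-107760719, minus strand: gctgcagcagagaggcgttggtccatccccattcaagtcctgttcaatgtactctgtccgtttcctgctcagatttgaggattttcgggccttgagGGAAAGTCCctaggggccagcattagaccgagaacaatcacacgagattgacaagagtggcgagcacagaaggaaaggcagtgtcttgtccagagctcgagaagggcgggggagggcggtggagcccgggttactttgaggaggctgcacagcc
Csf2ra, chr19:61228419-61228668, minus strand: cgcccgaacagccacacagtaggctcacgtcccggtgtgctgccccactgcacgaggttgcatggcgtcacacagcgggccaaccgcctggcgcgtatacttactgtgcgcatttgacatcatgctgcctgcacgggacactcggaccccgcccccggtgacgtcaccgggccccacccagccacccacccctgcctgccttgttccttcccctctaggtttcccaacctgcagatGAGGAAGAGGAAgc
Csf2rb2, chr15:78305722-78305971, minus strand: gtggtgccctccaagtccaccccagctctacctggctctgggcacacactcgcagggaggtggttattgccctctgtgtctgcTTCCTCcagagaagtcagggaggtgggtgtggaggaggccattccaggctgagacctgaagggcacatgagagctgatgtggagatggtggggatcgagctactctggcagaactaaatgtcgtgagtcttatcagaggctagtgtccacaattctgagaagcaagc
The Csf1 window held 1 match to the NF-κB-like sequence and 0 to the PU.1 core. The windows of Csf2ra, Csf2rb2 and Csf3r held 2, 1 and 1 matches to the PU.1 core. The pair in Csf2ra adjoined each other at the end of the window and reached into the first exon of GENCODE. The Csf3r window (chr4:126024409-126024658) ran past the GENCODE start at 126024550, and its match lay beyond that start. The Csf2 window (chr11:54249900-54250149) held 0 of either. It stopped short of the GENCODE start at 54249667, and the bases between them were not searched. A match is a description of letters and does not show that a factor binds there.

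The libraries held 35285791 to 40138912 counts in Tshr f/f BMDMs, 33683981 to 40954211 in TshrMKO BMDMs, 29044366 to 34664636 in livers labelled Tshr f/f and 28962878 to 40420513 in livers labelled TshrMKO. Values below are counts scaled to a library of 1000000 (CPM) after scaling by TMM within BMDMs or within livers, where 3 counts, the limit that a count of 0 allows, equal 0.0687–0.115 CPM in BMDMs and 0.0714–0.106 CPM in livers. Replicate 3 stood apart in both BMDM groups, and the scaling factor of Tshr f/f replicate 3 was 0.738. Tshr itself had 0, 0 and 2 counts in the Tshr f/f cultures, 0, 0 and 5 in TshrMKO BMDMs and 0 in every liver, so its loss could not be checked, and only part of the gene is floxed. The macrophage label held, since 12 macrophage genes summed to 15895–31394 CPM in BMDMs while 6 hepatocyte genes summed to at most 0.0783 CPM, against 71946–93017 CPM in livers. The headings under which the study tabulates liver counts give the genotypes the other way round from the labels, so livers are named by their labels and every direction in liver rests on them.

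The first question was which members BMDMs expressed and how their levels compared with those in liver. For comparison between genes, levels were divided by exon length and scaled over all 12 libraries. Csf1r was the leading member in BMDMs, at 251 ± 49.3 CPM per kb (SD, n = 6) with a range of 198 to 334, and it ranked between the 71st and the 230th of all genes in each library by this measure. The other receptor chains followed at 79.5 ± 25.6 CPM per kb for Csf2ra, 67.4 ± 19.1 for Csf2rb2, 65.0 ± 38.2 for Csf3r and 64.8 ± 22.8 for Csf2rb (SD, n = 6). Their ranges overlapped, so no order among these 4 could be read. Csf1 had 13.3 ± 3.64 CPM per kb, below every receptor chain in every library, and Csf2 and Il34 lay near the lower limit at 0.588 ± 0.570 and 0.274 ± 0.311 (SD, n = 6), with ranges that overlapped. Csf3 could not be placed in the order, since its level ran from 0.0544 to 455 CPM per kb.

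**Figure D1:**
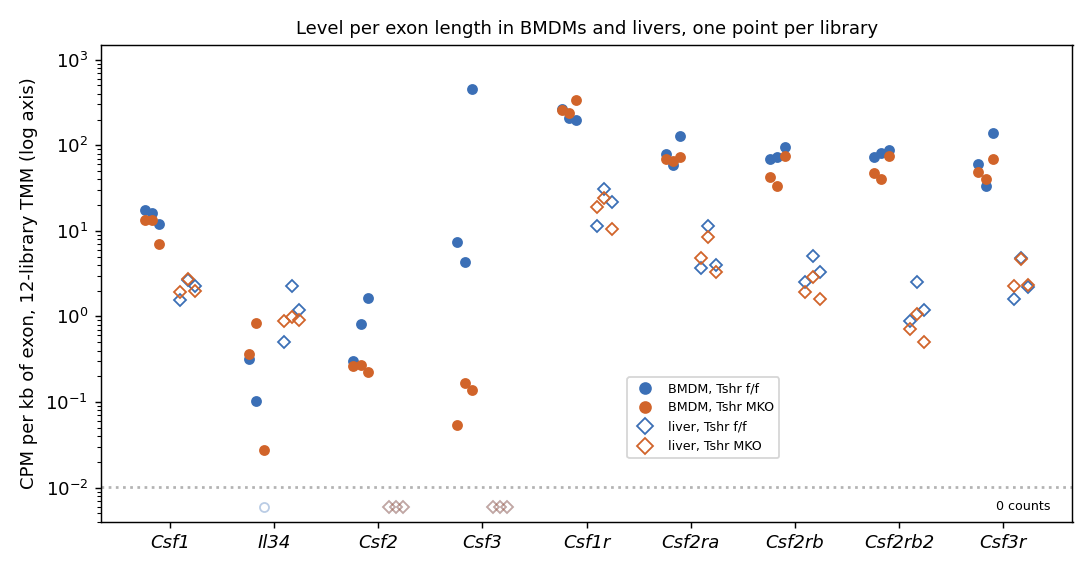
Level of each member per exon length (CPM per kb of exon, TMM over 12 libraries, log axis) in BMDMs (filled circles) and livers (open diamonds), 1 point per library, with Tshr f/f in blue and TshrMKO in orange and libraries at 0 counts under the dotted line. All receptor chains and Csf1 lie higher in BMDMs than in livers without overlap, Csf2 and Csf3 are at 0 in all 6 livers, and Il34 overlaps.

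In liver the levels of the receptor chains and of Csf1 were lower. Csf1r again led, at 19.6 ± 7.88 CPM per kb, followed by Csf2ra at 5.94 ± 3.25, Csf3r at 2.99 ± 1.39, Csf2rb at 2.89 ± 1.23, Csf1 at 2.19 ± 0.461, Csf2rb2 at 1.14 ± 0.712 and Il34 at 1.12 ± 0.6002 (SD, n = 6). Across livers the ranges of all neighbours in this order overlapped, also those of Csf1r, with a lowest level of 10.5 CPM per kb, and Csf2ra, with a highest of 11.3. Within each single liver Csf1r stood above Csf2ra. Csf2rb2 stood below Csf1 in every liver and above it in every BMDM library. Csf2 and Csf3 had 0 counts in all 6 livers.

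In the test of BMDMs against livers (edgeR quasi-likelihood, adjusted over 17246 genes) the 5 receptor chains and Csf1 were higher in BMDMs. The log2 difference was 5.93 ± 0.34 (SE) for Csf2rb2, 4.50 ± 0.28 for Csf2rb, 4.41 ± 0.44 for Csf3r, 3.73 ± 0.37 for Csf2ra, 3.67 ± 0.29 for Csf1r and 2.59 ± 0.21 for Csf1, with a highest adjusted p of 4.1e-06 among them. Il34, which keratinocytes and neurons are known to make, was the member that was lower in BMDMs, by a log2 difference of −2.18 ± 0.78 (adjusted p = 0.0247), and its groups overlapped. This call was lost with the replicate block (−0.92, adjusted p = 0.378) and without BMDM Tshr f/f replicate 2, BMDM TshrMKO replicate 1 or liver Tshr f/f replicate 2 (adjusted p = 0.0516, 0.0528 and 0.0615). For Csf2 and Csf3 only a bound can be given against livers at 0, with a limit of 3 counts over a liver group. Csf2 was at least 15.6-fold higher in Tshr f/f BMDMs than in livers of that label and at least 5.21-fold higher in TshrMKO BMDMs, and Csf3 was at least 3740-fold and at least 4.39-fold higher. The bound for Csf3 in Tshr f/f rested on replicate 3, without which it was 191-fold. Groups did not overlap for 8 of the 9 members, beside 60.3% of all genes tested, and 8 were higher in BMDMs at an adjusted p under 0.05, beside 37.3% of all genes. Culture, TSH, diet and insulin go with the tissue and cannot be told apart from it.

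The balance within the beta chain pair also differed between the tissues. Csf2rb had 1.27 to 1.67 counts for each count of Csf2rb2 in the 6 BMDM libraries and 3.10 to 4.96 in the 6 livers, without overlap. Within a tissue the ratio of the genotypes overlapped (exact permutation test over 20 splits, two-sided, p = 0.5 in BMDMs and 0.6 in livers, where the smallest p possible is 0.1). These ratios were chosen after their values were seen.

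The second question was whether loss of Tshr in myeloid cells went with a change of these genes in TSH-treated BMDMs. The clearest difference among the members was in Csf3, the G-CSF gene, which was near the detection limit in TshrMKO cells and well above it in Tshr f/f cells. Csf2 was also lower. The level of Csf1r, the receptor for the M-CSF in which the cells were grown, did not pass the test. Of the 9 members tested, 2 had an unadjusted p under 0.05, both lower in TshrMKO, beside 10.2% of the 15372 genes tested that were lower and 7.73% that were higher. None reached an adjusted p under 0.05 with edgeR, nor did any of the 8 members for which DESeq2 gave a p, which it did not give for Csf3. Over all genes edgeR called 0% at that limit, where 2756 genes had an unadjusted p under 0.05 and DESeq2 called 1223 genes. After TMM scaling the groups did not overlap for these 2 members, beside 28.7% of all genes.

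**Figure D2:**
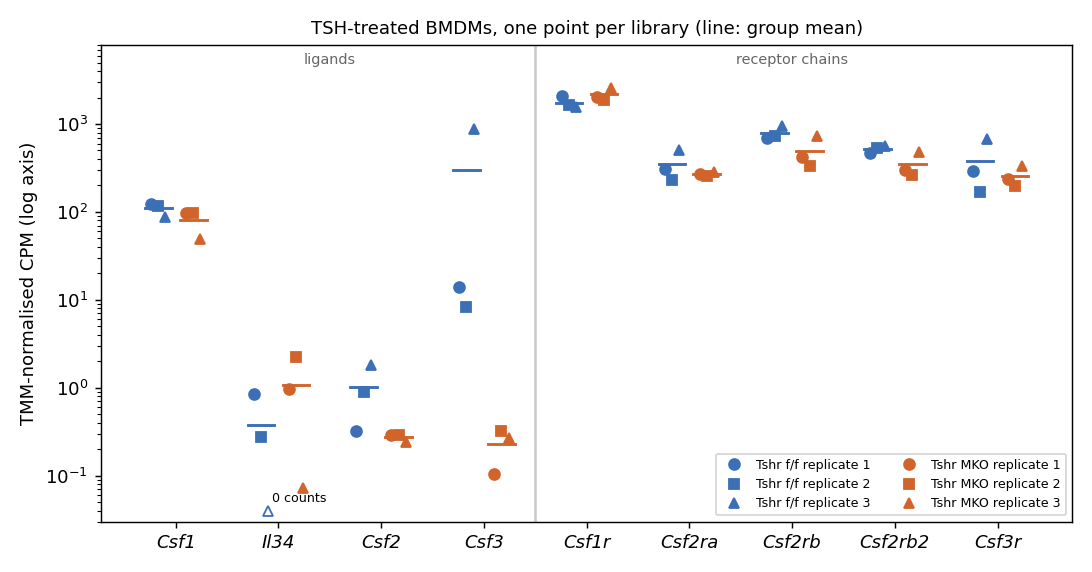
Level of each member in TSH-treated BMDMs (TMM-normalised CPM, log axis), 1 point per library, with Tshr f/f in blue, TshrMKO in orange, the shape giving the replicate and the line the group mean of 3 libraries. Csf3 and Csf2 are the members whose groups do not overlap, with Csf3 at 8.34 to 873 CPM in Tshr f/f and 0.104 to 0.320 CPM in TshrMKO.

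Csf3 (chr11:98701263-98703629, plus strand, GRCm38) had 561, 364 and 22740 counts in the Tshr f/f libraries, or 14.1, 8.34 and 873 CPM, and 4, 12 and 11 counts in the TshrMKO libraries, or 0.104, 0.320 and 0.265 CPM. Every Tshr f/f library was above every TshrMKO library, and Tshr f/f replicate 3 stood far above the other Tshr f/f libraries. In that library Csf3 ranked 85th of all genes by level per exon length, against 4297th and 6043rd in the other Tshr f/f libraries and 14955th to 17525th in the TshrMKO libraries. The log2 fold change (TshrMKO over Tshr f/f) was −10.32 ± 2.44 (SE, edgeR, unadjusted p = 0.00483, adjusted p = 0.218). Without Tshr f/f replicate 3 it was −5.59 (unadjusted p = 5.1e-05, adjusted p = 0.0640), and without replicate 3 of both genotypes −5.71 (unadjusted p = 0.000403, adjusted p = 0.0826). The size of the difference therefore rested on 1 library, and its direction did not.

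Csf2 (chr11:54247271-54249667, minus strand), the GM-CSF gene, had 13, 39 and 47 counts in the Tshr f/f cultures, or 0.326, 0.893 and 1.81 CPM, and 11, 11 and 10 counts in TshrMKO BMDMs, or 0.287, 0.293 and 0.241 CPM. The groups did not overlap after TMM scaling, but the lowest Tshr f/f library exceeded the highest TshrMKO libraries by only 2 counts. Scaled by library total alone they overlapped, with 0.324 CPM in Tshr f/f replicate 1 and 0.327 CPM in TshrMKO replicate 2. The log2 fold change was −1.85 ± 0.66 (SE, unadjusted p = 0.0284, adjusted p = 0.252, edgeR). It was −1.14 (unadjusted p = 0.0952) without Tshr f/f replicate 3 and −2.25 (unadjusted p = 0.00496) without Tshr f/f replicate 1. An antisense gene lies over Csf2, and whether the counting used strand was not given in the sources used here.

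The remaining ligands were Csf1 and Il34. Csf1 (chr3:107741048-107760469, minus strand) had 125, 117 and 87.3 CPM in the Tshr f/f cultures and 96.4, 97.7 and 49.4 CPM in TshrMKO BMDMs. The third replicate was the lowest of each genotype, and the ranges overlapped through that of Tshr f/f. The log2 fold change was −0.44 ± 0.30 (SE, unadjusted p = 0.187, edgeR), and −0.32 without replicate 3 of both genotypes (unadjusted p = 0.0345). Summed CPM of 9 fibroblast and stellate cell markers was also lowest in TshrMKO replicate 3 (795, against 1180–2813 in the other BMDM libraries), and its part in the Csf1 value was not tested. Il34 (chr8:110741829-110805924, minus strand) had 34, 12 and 0 counts in Tshr f/f and 37, 83 and 3 in TshrMKO, a spread within each genotype as wide as the difference between them (log2 fold change 1.47 ± 1.35 SE).

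Among the receptors, Csf1r (chr18:61100598-61132149, plus strand) had 2073, 1645 and 1551 CPM in the Tshr f/f cultures and 2048, 1880 and 2586 CPM in TshrMKO BMDMs. The ranges overlapped, and its log2 fold change was 0.31 ± 0.23 (SE, unadjusted p = 0.225, edgeR). Of 12 macrophage genes, 3 were higher and 2 lower in TshrMKO at an unadjusted p under 0.05 (edgeR), beside 7.73% and 10.2% of all genes. Their sum was 15895–18249 CPM in Tshr f/f and 21136–31394 CPM in TshrMKO, which Lyz2 carried, with 8871, 9844 and 8773 CPM against 16149, 14537 and 22320 CPM. Lyz2 promoter elements drive the Cre, and any bearing of the Cre allele on the Lyz2 counts was not tested. Without Lyz2 the other 11 genes summed to 7024, 6390 and 9476 CPM in Tshr f/f and 7642, 6598 and 9074 CPM in TshrMKO, which overlapped. Their part in the Csf1r value was not tested.

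The beta chains were lower in most TshrMKO libraries. Csf2rb had 690, 736 and 939 CPM in the Tshr f/f cultures and 417, 333 and 728 CPM in TshrMKO BMDMs, and Csf2rb2 had 468, 537 and 561 CPM against 302, 263 and 476 CPM. For both genes TshrMKO replicate 3 lay inside the Tshr f/f range and the other TshrMKO libraries lay below it. The log2 fold changes were −0.68 ± 0.33 for Csf2rb (unadjusted p = 0.0831) and −0.59 ± 0.26 for Csf2rb2 (SE, unadjusted p = 0.0627, edgeR). Without TshrMKO replicate 3 they were −1.07 (unadjusted p = 0.00855, adjusted p = 0.329) and −0.89 (unadjusted p = 0.00796, adjusted p = 0.329). Because the copies share sequence, the pair is not 2 independent observations.

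A ratio within a library does not depend on scaling between libraries. By level per exon length, Csf1r stood 3.78, 2.81 and 2.08 times above Csf2rb in Tshr f/f BMDMs and 6.19, 7.12 and 4.48 times above it in TshrMKO BMDMs. The groups did not overlap (exact permutation test, two-sided, p = 0.1, the smallest that 3 against 3 libraries allow). Csf1 counts were 6.01, 7.14 and 5.63% of Csf1r counts in Tshr f/f and 4.70, 5.20 and 1.91% in TshrMKO, again without overlap (exact permutation test, p = 0.1). In livers the same ratios overlapped between the labels, with Csf1r at 4.49, 6.16 and 6.62 times Csf2rb in Tshr f/f and 9.73, 8.30 and 6.51 times in TshrMKO (exact permutation test, p = 0.2), and p = 0.5 for Csf1 counts against Csf1r counts (exact permutation test). Both ratios were chosen after their values were seen and show unequal levels of the genes, not which of them differed.

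Csf2ra (chr19:61223957-61228429, minus strand), the ligand-specific chain for GM-CSF, had 311, 232 and 505 CPM in the Tshr f/f cultures and 269, 260 and 282 CPM in TshrMKO BMDMs. The TshrMKO values lay close together inside the Tshr f/f range (log2 fold change −0.37 ± 0.30 SE), and without Tshr f/f replicate 3 the difference was −0.01. Csf3r (chr4:126024550-126044440, plus strand), the G-CSF receptor, had 296, 167 and 679 CPM in Tshr f/f and 238, 199 and 331 CPM in TshrMKO. Its log2 fold change of −0.57 ± 0.52 (SE) turned to 0.14 without Tshr f/f replicate 3. Csf3r also marks neutrophils, and the sum of 12 neutrophil genes was 18.6, 367 and 64.7 CPM in Tshr f/f and 31.4, 19.3 and 124 CPM in TshrMKO. The library with the highest sum, Tshr f/f replicate 2, had the lowest Csf3r.

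**Figure D3:**
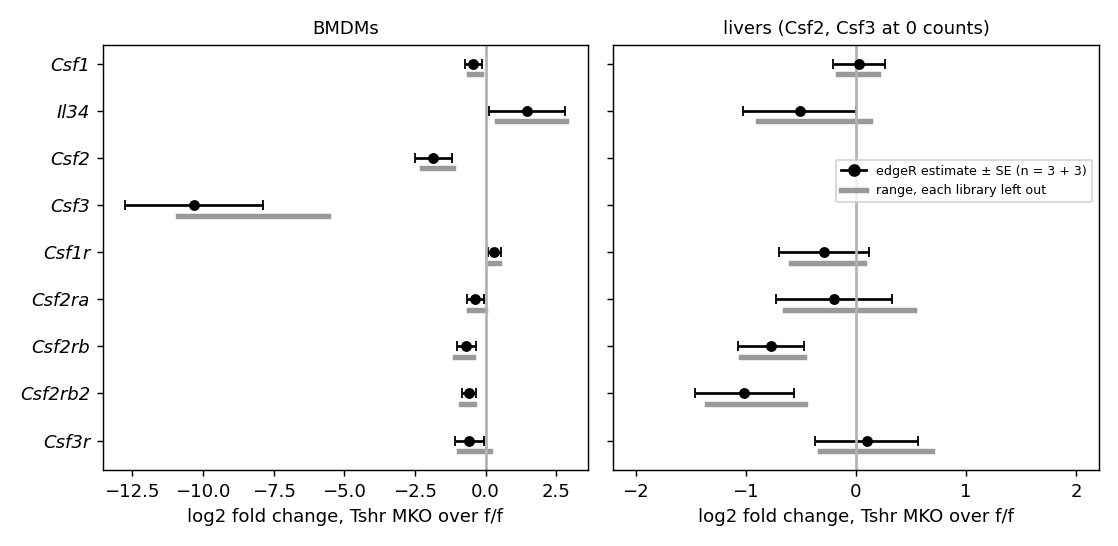
Log2 fold change of each member, TshrMKO over Tshr f/f, in BMDMs (left) and livers (right), as the edgeR estimate ± SE (black, 3 against 3 libraries) with the range when each library was left out in turn (grey bar). Csf3 lies far to the left in BMDMs at −10.32 and its range reaches −5.59, Csf2rb and Csf2rb2 lie below 0 in both panels under every library left out, and Csf2 and Csf3 have no estimate in livers.

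The genes whose pattern over the 6 BMDM libraries was most like that of Csf3 were Il6, Slamf1 and Nos2, with root mean square differences of 0.950, 1.01 and 1.06 on the log2 scale after centring, against a spread of 4.43 for Csf3 itself. Il6, encoding an inflammatory cytokine, had 58.6, 25.2 and 1454 CPM in Tshr f/f and 0.392, 0.293 and 1.98 CPM in TshrMKO. Nos2, encoding inducible nitric oxide synthase, had 411, 470 and 6550 CPM against 2.45, 3.15 and 11.6 CPM. In all 3 genes Tshr f/f replicate 3 was the highest library, as for Csf3. The genes most like Csf1 were Il17rc, Cenpw and 1700001L05Rik (0.100, 0.121 and 0.127), all under 4 CPM. Those most like Csf1r were Ap1g2, Irak4 and Arid4a (0.0626, 0.0673 and 0.0699). The likeness was taken over 6 libraries and is a description.

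Genes that act around the receptors were read from lists, given here as counts at an unadjusted p under 0.05 with edgeR, where 0 members of any list had an adjusted p under 0.05. Of 17 JAK–STAT genes of the GM-CSF and G-CSF receptors, 7 were lower and 0 higher in TshrMKO cultures, and the list's median was −0.29 on the log2 scale against 0.01 over all genes tested. Without Tshr f/f replicate 3 the counts were also 7 and 0, and without TshrMKO replicate 1 or replicate 2 they were 3 and 0. Jak2, the kinase bound to the beta chain, had 303, 268 and 855 CPM in Tshr f/f and 82.9, 86.6 and 98.3 CPM in TshrMKO (log2 fold change −2.41 ± 0.48 SE, unadjusted p = 0.00209). The feedback inhibitors Socs3 and Socs1 changed by −3.21 ± 1.01 and −2.53 ± 0.75 (unadjusted p = 0.0179 and 0.0138), and Socs3 had 205, 109 and 1241 CPM in Tshr f/f against 38.3, 34.3 and 95.3 CPM in TshrMKO. The groups were separate for Jak2 and Socs3, beside 28.7% of all genes, with Tshr f/f replicate 3 the highest library in each.

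Genes that GM-CSF is known to raise in macrophages were counted as a further list. Of 10 tested of 12 listed, 0 were lower and 5 higher in TshrMKO BMDMs, beside 10.2% and 7.73% of all genes, with a median of 0.90. The listed genes did not all move up, since estimates of genes that did not pass ran down to −1.60 ± 0.78 (SE, unadjusted p = 0.0821, edgeR). Pparg, a lipid-sensing nuclear receptor, had 11.2, 1.03 and 1.77 CPM in Tshr f/f and 33.5, 41.3 and 17.7 CPM in TshrMKO (log2 fold change 2.71 ± 0.92 SE, unadjusted p = 0.0240). Irf4, a transcription factor that is also on the list of lineage factors, changed by 1.31 ± 0.25 (unadjusted p = 0.00140), Mmp12, encoding macrophage elastase, by 1.28 ± 0.40 (unadjusted p = 0.0178), and Itgax, encoding CD11c, by 1.16 ± 0.39 (unadjusted p = 0.0225). The count was 2 higher and 0 lower of 11 tested without Tshr f/f replicate 3, and 2 higher and 2 lower of 10 with a median of 0.11 without replicate 3 of both genotypes, so the counts of the list rested on those libraries. With all 12 libraries in 1 fit 2 were higher and 0 lower.

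**Figure D4:**
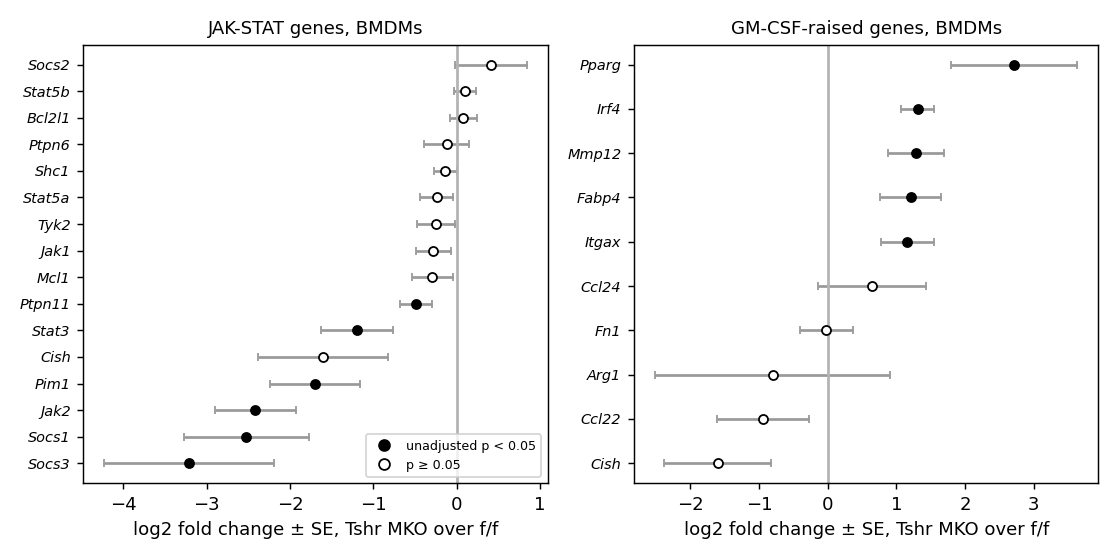
Log2 fold change ± SE in BMDMs, TshrMKO over Tshr f/f (3 against 3 libraries, edgeR), for 16 of the 17 JAK–STAT genes (left) and the 10 tested genes known to be raised by GM-CSF (right), with filled points at an unadjusted p under 0.05. The 6 filled points on the left lie below 0, with Socs3 at −3.21, and the 5 on the right lie above 0, with Pparg at 2.71.

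The list of CSF1R signal transduction was mixed, with 4 lower and 3 higher of 23 and a median of 0.04. For this and the next lists, 10.2% of all genes were lower and 7.73% higher at the unadjusted limit. Src, encoding a tyrosine kinase, changed by −2.16 ± 0.54, Map2k1, encoding MEK1, by −1.11 ± 0.30, and Pik3r1, a regulatory subunit of PI3-kinase, by 0.57 ± 0.17 (log2, SE, lowest unadjusted p = 0.00638 for Src). Of 13 transcription factors of the lineage, 3 were lower and 4 higher (median −0.15). The lower count was 0 without TshrMKO replicate 2 and 1 without TshrMKO replicate 1 or Tshr f/f replicate 3, and the higher count was 3 or 4 with any single library left out. Among them Cebpa rose at the unadjusted limit from 66.4, 70.4 and 28.0 CPM in Tshr f/f to 248, 232 and 159 CPM in TshrMKO (1.96 ± 0.39, unadjusted p = 0.00193), and Maf by 1.31 ± 0.24 (unadjusted p = 0.00124). Cebpb, a factor induced in inflammation, changed by −1.12 ± 0.34 (unadjusted p = 0.0156). Of 8 tested relatives of the members, 2 were lower and 0 higher, with Sdc1, encoding a syndecan that binds IL-34, at −0.71 ± 0.20 and Pdgfrb at −0.92 ± 0.34 (unadjusted p = 0.0111 and 0.0329).

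In livers the question was whether these genes differed with myeloid deletion of Tshr under the high-fat diet. Of the 7 members with counts, 1 had an unadjusted p under 0.05, lower in livers labelled TshrMKO, beside 5.18% of the 15062 genes tested that were lower and 5.27% that were higher. Groups did not overlap for 0 of 7 members, beside 17.3% of all genes. None of the members had an adjusted p under 0.05 with edgeR or DESeq2, and edgeR called 0% of all genes at that limit, where 1574 genes had an unadjusted p under 0.05 and DESeq2 called 269. In whole liver, fewer cells of a type and less RNA per cell cannot be told apart.

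Csf2rb was the member past the unadjusted limit. It had 13.8, 27.0 and 17.7 CPM in the Tshr f/f livers and 10.3, 15.1 and 8.78 CPM in the TshrMKO livers, where only TshrMKO replicate 2 lay inside the range of the other group. The log2 fold change was −0.77 ± 0.30 (SE, unadjusted p = 0.0365, adjusted p = 0.440, edgeR). Csf2rb2 had 3.15, 8.71 and 4.15 CPM against 2.46, 3.67 and 1.77 CPM, with a log2 fold change of −1.02 ± 0.45 (SE, unadjusted p = 0.0588). Tshr f/f replicate 2 was the highest liver for both, and without it the differences were −0.47 for Csf2rb (unadjusted p = 0.119) and −0.47 for Csf2rb2 (unadjusted p = 0.250).

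The other receptor chains did not pass. Csf1r had 49.0, 132 and 93.3 CPM in the Tshr f/f livers and 79.4, 99.5 and 45.4 CPM in the TshrMKO livers (log2 fold change −0.29 ± 0.41 SE, unadjusted p = 0.505). Csf2ra had 7.88, 23.9 and 8.33 CPM against 10.1, 17.6 and 7.19 CPM, and Csf3r had 4.297, 12.8 and 5.84 CPM against 6.01, 12.2 and 6.34 CPM. Replicate 2 was the highest library of each genotype in all 3 genes. Of the ligands, Csf1 had 6.09, 10.3 and 8.79 CPM against 7.43, 10.4 and 7.82 CPM (log2 fold change 0.02 ± 0.24 SE), and Il34 had 0.744, 3.25 and 1.69 CPM against 1.26, 1.40 and 1.35 CPM (−0.51 ± 0.51 SE). Both pairs of ranges overlapped.

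The level of Csf1r in liver ran with the level of Kupffer cell genes. The sum of 7 Kupffer markers was 235, 613 and 456 CPM in the Tshr f/f livers and 411, 528 and 207 CPM in the TshrMKO livers. The 6 livers fell in the same order by this sum as by Csf1r, which amounted to 20.9, 21.5 and 20.4% of the sum in Tshr f/f and to 19.3, 18.8 and 21.9% in TshrMKO. No Kupffer marker was at 0 in all livers of a label. Of these 7 markers, 0 were lower and 0 higher at an unadjusted p under 0.05, beside 5.18% and 5.27% of all genes. Csf2rb was less even, at 5.86, 4.404 and 3.89% of the sum in Tshr f/f and 2.50, 2.86 and 4.23% in TshrMKO, with overlap (exact permutation test, two-sided, p = 0.2). Csf2rb2 was at 1.34, 1.42 and 0.909% against 0.599, 0.694 and 0.853%, without overlap (exact permutation test, p = 0.1, the smallest possible). Csf2ra and Csf3r ran from 1.83 to 3.895% and from 1.28 to 3.06% of the sum, and the liver with the lowest Kupffer sum was the third highest for Csf3r. These ratios were chosen after values were seen. Markers of other cells moved with Csf1r too. The sum of 6 endothelial markers was 41.2, 153 and 130 CPM in Tshr f/f and 111, 128 and 89.5 CPM in TshrMKO, and that of 9 fibroblast and stellate cell markers was 34.95, 272 and 163 CPM against 165, 164 and 105 CPM. Both were lowest in Tshr f/f replicate 1 and TshrMKO replicate 3 and highest in Tshr f/f replicate 2, and their part in the Csf1r value was not tested. Neutrophil markers, whose cells carry Csf3r, summed to 137, 38.2 and 16.6 CPM in Tshr f/f and 12.9, 21.5 and 25.7 CPM in TshrMKO, and the liver with the highest sum had the lowest Csf3r.

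**Figure D5:**
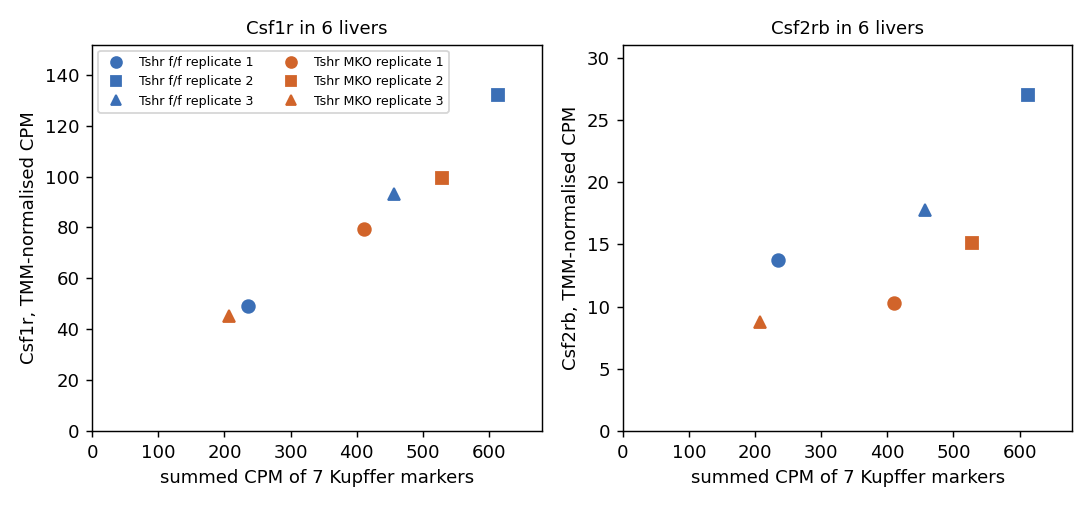
Level of Csf1r (left) and Csf2rb (right) in the 6 livers (TMM-normalised CPM) against the summed CPM of 7 Kupffer cell markers, 1 point per library, with the label Tshr f/f in blue, TshrMKO in orange and the shape giving the replicate. Csf1r runs from 45.4 to 132 CPM in the same order as the sum. Csf2rb is lower in each TshrMKO liver than in the Tshr f/f liver nearest to it by the sum, while its shares of the sum overlap.

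The lists around the receptors moved little in liver. Of 16 JAK–STAT genes 2 were lower and 0 higher, namely Socs3 (40.7, 16.4 and 38.0 CPM in Tshr f/f, 6.45, 8.93 and 20.8 CPM in TshrMKO, log2 fold change −1.40 ± 0.52 SE) and Ptpn11, encoding the phosphatase SHP2 (−0.23 ± 0.09 SE). Of 23 genes of CSF1R signal transduction, 2 were lower and 0 higher, namely Cblb, encoding a ubiquitin ligase (−0.92 ± 0.19 SE), and Myc (−0.86 ± 0.31 SE). Of the lineage factors, the relatives and the genes raised by GM-CSF, 0 of 11, 0 of 8 and 0 of 8 passed, and their medians were −0.07, −0.23 and −0.36. Of 11 neutrophil markers 3 were lower and 0 higher (Mmp8, Ltf and Ngp, at −1.37, −2.29 and −2.24, with a list median of −1.38). The count was 0 without Tshr f/f replicate 1, where the median was −0.41, and also 0 without any single TshrMKO liver, with the replicate block and with the sample ID letter as a covariate, while it was 7 without Tshr f/f replicate 3 and with DESeq2. All these counts are at an unadjusted p under 0.05 and 0 genes of these lists had an adjusted p under 0.05 in liver with edgeR. In the main test 5.18% of all genes were lower and 5.27% higher at the unadjusted limit.

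Whether the effect of genotype differed between BMDMs and livers was tested directly, as the effect in BMDMs minus that in livers. Among the 7 members with counts in liver, 0 had an unadjusted p under 0.05 (edgeR), beside 7.42% of 17246 genes with a negative and 7.12% with a positive difference and 0.0058% (1 gene) at an adjusted p under 0.05. The differences were 0.09 ± 0.49 for Csf2rb, 0.42 ± 0.55 for Csf2rb2, −0.47 ± 0.40 for Csf1, 0.59 ± 0.52 for Csf1r, −0.18 ± 0.67 for Csf2ra, −0.68 ± 0.77 for Csf3r and 1.97 ± 1.52 for Il34 (log2, SE). The test rests on the liver labels. With these exchanged, which adds the effects in place of subtracting them, 2 members had an unadjusted p under 0.05 (edgeR). They were Csf2rb at −1.43 (unadjusted p = 0.0154, adjusted p = 0.277) and Csf2rb2 at −1.58 (unadjusted p = 0.0170, adjusted p = 0.279). Of all 17246 genes, 1286 were below 0 and 1141 above 0 at that unadjusted limit. Under each other alternative 0 members had an unadjusted p under 0.05. For Csf2 and Csf3, at 0 in every liver, it could not be estimated, so it is not known whether their lower level in TshrMKO cells is particular to BMDMs.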

How the data were processed

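RNA was sequenced from 6 BMDM cultures and 6 livers in strand-specific TruSeq libraries on a NovaSeq instrument. The authors deposited raw read counts per gene, and the submitters' processing notes name FastQC 0.11.2, STAR, StringTie and the build mm10. How the counting treated strand and shared reads was not given in the sources used here. The authors' own test, the MARS model of DEGseq, was not used. The study's methods give 3 mice per group, and the labels do not tie a library to a mouse.

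Samples were grouped by their labels. The main test was the robust quasi-likelihood test of edgeR 4.0.16 after filterByExpr and TMM, in R 4.3.3, on the whole table, per tissue and over all 12 libraries, with Benjamini–Hochberg adjustment at 0.05. Alternatives were RLE scaling, no filter, DESeq2 1.42.0, a replicate block, all libraries in 1 fit, no scaling factors, the letter of the sample ID, Tshr f/f only, exchanged liver labels (chosen after seeing the data, as were no scaling factors and leaving out replicate 3 of both genotypes) and each library left out. Exon lengths came from GENCODE M21, which holds 55154 of the 55335 genes. Promoters came from RefSeq. In simulated BMDM counts with 200 genes changed by 2 on the log2 scale, over 15050 genes, edgeR recovered 62.5%, and 6.02% of its calls were unchanged genes. In simulated liver counts over 14740 genes it recovered 84.5%, and 9.63% of its calls were unchanged genes. In both, the changed genes were drawn from a middle range of mean counts. In BMDMs the means of Csf2 and Il34 lay below that range and those of the other members above it. The 62.5% therefore does not describe the members.

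The members and lists were chosen with earlier results of these data known. Named genes were the 9 members, Tshr, at most 4 genes of a list with the smallest unadjusted p under 0.05, and the 3 genes closest in pattern to Csf1, Csf3 and Csf1r, from log2 CPM with 0.5 added to each count. Floors cover counting error only, while each SD and SE also covers variation between libraries. Some genes that the rule would name are not reported here, in the text or in the plot of the lists, and are included in the counts and medians of their lists.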

Additional observations from a re-analysis of the deposited data

How the results depend on the processing

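In BMDMs the number of genes at an adjusted p under 0.05 was 0 with edgeR, 1223 with DESeq2, 150 with all 12 libraries in a fit, 1 with the replicate block and 0 to 20 with libraries left out, the 20 without replicate 3 of both genotypes. The number at an unadjusted p under 0.05 was 1295 to 3982 with libraries left out, against 2756. Members at an unadjusted p under 0.05 were 2, and 4 with the replicate block (Csf3, Csf1, Csf2rb and Csf2rb2, and not Csf2) and 1 to 4 with libraries left out. With the block, 1337 of all 15372 genes were lower and 1098 higher at that limit.

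In livers the adjusted count was 0, 269 with DESeq2, 1 with no filter and 0 to 7 with libraries left out. Members at an unadjusted p under 0.05 were 1, 2 with DESeq2 or the replicate block, 0 with no scaling factors, 0 with the sample ID letter and 0 to 3 with libraries left out. Of all 15062 genes, 880 were lower and 769 higher with DESeq2, and 625 and 602 with the block. These numbers were 619 and 904 with no scaling factors, and 667 and 784 with the letter. With libraries left out, 531 to 1158 were lower and 485 to 971 higher, of 15291 to 15624 genes. For the difference between tissues, the adjusted count was 1, 774 with DESeq2, 0 with the replicate block and 0 to 341 with libraries left out, the 341 without BMDM Tshr f/f replicate 2. With the liver labels exchanged, it was 2, members at an unadjusted p under 0.05 were 2 against 0, and Csf2rb and Csf2rb2 turned to −1.43 and −1.58. Of all 17246 genes, 1286 were then below 0 and 1141 above 0 at that unadjusted limit.

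Directions turned, with libraries left out, for Csf3r in BMDMs (−0.93 to 0.14), and in livers for Csf1 (−0.17 to 0.20, and −0.025 with the ID letter), Csf1r (−0.59 to 0.069), Csf2ra (−0.64 to 0.52), Csf3r (−0.32 to 0.69) and Il34 (−0.89 to 0.13). They turned for the difference between tissues in Csf2ra (−0.91 to 0.27), Csf2rb (−0.31 to 0.37), Csf2rb2 (−0.14 to 0.76) and Csf3r (−1.28 to 0.051). Of these, Il34 in livers without Tshr f/f replicate 1 alone had an unadjusted p under 0.05 (0.0404). Csf3, Csf2, Csf2rb and Csf2rb2 kept their direction in BMDMs under all 13 alternatives. DESeq2 gave Csf3 in BMDMs no p. Between tissues, Il34 and Csf3 lost their call with the replicate block (adjusted p = 0.378 and 0.244), Il34 also without 1 of 3 libraries (adjusted p up to 0.0615) and Csf3 without TshrMKO replicate 2 or 3 (up to 0.0609). The cause was not tested. Whether libraries of the same number were pairs could not be settled from 3 correlations in each tissue. The correlations of their deviations were 0.152, 0.0357 and 0.118 in BMDMs and −0.0755, 0.254 and −0.0331 in livers. Between libraries of unlike number they ran from −0.208 to 0.164 in BMDMs and from −0.356 to 0.373 in livers. The depth left Csf2 and Il34 with at most 118 counts in any library, and groups of 3 libraries were not tested for outliers.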
